A study of Homo sapiens with 8 samples.

Results

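The knockdown of NAT10 in SW480 cells was described across all genes of the RNA-seq table. It covers 4 of the 8 samples, which are 2 libraries of SW480 cells infected with shNAT10 lentivirus and 2 of SW480 cells infected with shControl lentivirus. The other 4 samples are the same pair of groups in DLD-1 cells and are used here only to share the estimate of spread and to ask where SW480 differed. SW480 and DLD-1 are established human colorectal cancer cell lines, and every library, controls included, came from cells that carry an integrated short hairpin RNA. The labels call replicates 1 and 2 biological replicates and do not name the hairpin that was used.

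The values are gene totals of the estimated read counts that the authors deposited per transcript, given below as CPM, the count scaled to a common library size. The 4 SW480 libraries held between 16903327 and 17271336 counts, and 13619 of 17309 genes had enough counts to be tested. All 10 markers of colorectal epithelium on a list made for this purpose were expressed, at 3232 to 3893 CPM in sum. The markers of fibroblasts came to at most 5.03 CPM in sum, with COL3A1 and DCN at 0, and those of endothelial cells to at most 5.03 CPM, with KDR at 0. Immune cell markers came to at most 34.6 CPM, with NKG7 at 0, and neural markers to between 80.6 and 99.5 CPM. No marker of the 5 lists used passed the test in either direction.

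NAT10 is the acetyltransferase that makes N4-acetylcytidine (ac4C) in RNA. It modifies the small subunit ribosomal RNA and, with the adaptor protein THUMPD1, serine and leucine tRNAs, and ac4C has also been described in messenger RNA, where it is linked to stability and translation. The protein sits largely in the nucleolus, where ribosomes are assembled.

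The study designed a pair of hairpins against NAT10. Their target sites are shown because the labels leave open which one was used and because other transcripts hold parts of them. Capitals mark the match to the guide's seed, bases 2 to 8 of the guide.

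shNAT10-1: ggccaaagctgTCTTGAAa

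shNAT10-2: cagtgacgaccTAGATGAa

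In the NAT10 transcript ENST00000257829.7, 4002 bases long, the first site takes bases 986 to 1004 and spans the junction of exons 8 and 9 of 29. On GRCh38 it runs from position 34118503 to 34122476 of chromosome 11, plus strand, with the intron between. The second takes bases 3005 to 3023 across the junction of exons 26 and 27, from 34141805 to 34142280. Both lie upstream of the 3′UTR. The sites were placed on GENCODE transcripts of GRCh38.

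NAT10 mRNA (Entrez gene 55226) stood at 122 and 122 CPM in the shControl libraries and 23.6 and 27.9 CPM in the shNAT10 libraries. The knockdown left 21% of the control mean, and its log2 fold change ran from −2.37 to −2.12 when any SW480 library was left out. THUMPD1, the tRNA-binding partner of NAT10, went from 54.3 and 53.8 to 39.9 and 42.1 CPM. The log2 fold change was −0.40 (standard error 0.084, adjusted p = 0.0312, edgeR), with both shNAT10 libraries below both controls. After a correction of every library for GC content and transcript length it was −0.30 (adjusted p = 0.0157, edgeR).

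One of the shNAT10 libraries stood apart from the other 3 in a way that followed the GC content of the transcripts. Genes were divided into 5 bins of equal number by the GC content of their longest coding transcript, and each library was compared with the mean of the 4. In shNAT10 replicate 1 the median deviation went from −0.12 on the log2 scale in the bin with the lowest GC content to 0.15 in the bin with the highest. In shNAT10 replicate 2 it went from 0.0043 to −0.032. The controls leaned the same way as replicate 2, from 0.044 to −0.037 in replicate 1 and from 0.073 to −0.064 in replicate 2. Deviations are taken from the mean of all 4 libraries, so a tilt of 1 library pushes the other 3 the opposite way. Transcript length gave the mirror image in shNAT10 replicate 1, with 0.13 in the shortest and −0.13 in the longest bin. In shNAT10 replicate 2 these were −0.017 and 0.011. By length shControl replicate 2 leaned as well, from −0.093 to 0.094, and shControl replicate 1 went from −0.015 to 0.032. The length trend between groups was −0.24, and −0.17 without shControl replicate 2 and −0.085 without shNAT10 replicate 1. Between the 2 shNAT10 libraries alone the highest and lowest GC bins differed by 0.30, which is more than the 0.22 by which they differed between shNAT10 and shControl. The trend between groups was 0.065 without shNAT10 replicate 1 and 0.37 without shNAT10 replicate 2.

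**Figure D1:**
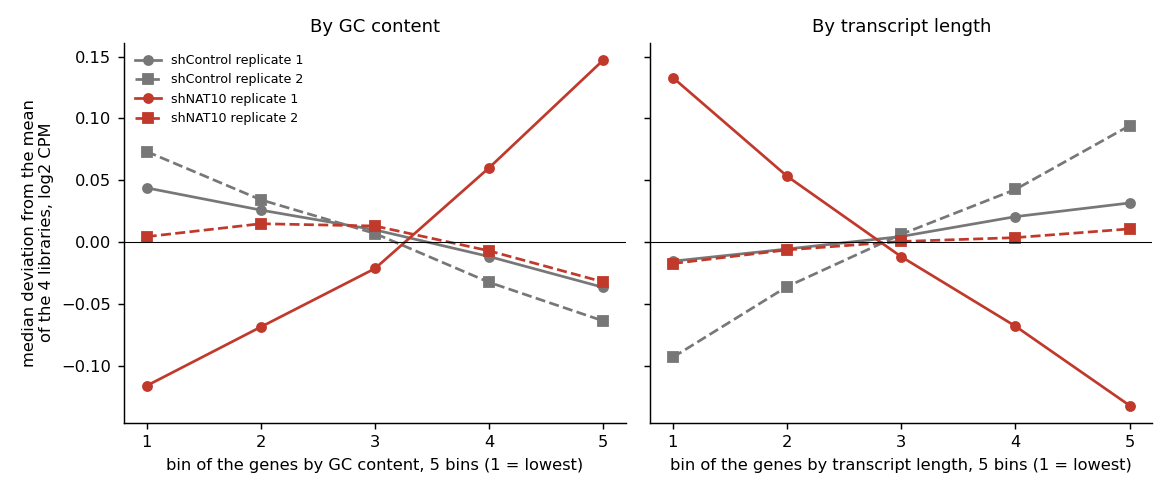
Median deviation of each SW480 library from the mean of the 4 libraries (log2 CPM, vertical axis) in 5 bins of the tested genes by GC content (left) and transcript length (right). The line of shNAT10 replicate 1 rises from −0.12 to 0.15 with GC content and falls from 0.13 to −0.13 with length. That of shNAT10 replicate 2 stays between −0.032 and 0.015, and that of shControl replicate 2 rises from −0.093 to 0.094 with length.

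The genes that passed the test were unlike each other in sequence. Those lower in shNAT10 cells had a median GC content of 41.5% and a median transcript length of 5444 bases, and those higher 57.3% and 2248 bases, against 49.4% and 3366 bases over all genes tested. In the lowest GC bin 58 genes were lower and 6 higher, and in the highest bin 5 were lower and 45 higher. Across genes, which are not independent of each other, the log2 fold change had a Spearman correlation of 0.40 with GC content and −0.42 with length. After the correction of each library for both features, the median difference between the end bins was 0.0063 for GC content and −0.0031 for length. In the same bins the corrected counts were 53 lower and 55 higher, and 22 lower and 49 higher. The share of the trend that belongs to the knockdown and the share that belongs to single libraries cannot be told apart. Corrected values therefore stand beside the main ones below.

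At an adjusted p under 0.05 by edgeR, 123 genes (0.903% of those tested) were lower and 106 (0.778%) were higher in SW480 shNAT10 cells. At the limits the study set, an unadjusted p under 0.05 and a fold change under 0.83 or above 1.2, 4.98% of tested genes were lower and 4.1% higher. With the correction, 235 genes (1.73%) were lower and 284 (2.09%) higher at the adjusted level, and 103 of the 123 and 92 of the 106 were among them. All 229 genes kept their direction. Each also had groups that did not overlap in CPM, as did 47.9% of all tested genes. The shares of all genes given here are those to set beside the counts for gene lists below. The lists were chosen with earlier results of these data known. A list's share above these, or its rank among lists, is therefore a description and not a test. Without shNAT10 replicate 1 there were 29 lower and 39 higher, of which 25 and 36 were among the 229, and 118 and 144 when the correction was made as well. Changes were small: 4 of the genes that fell had a log2 fold change under −1, none of those that rose had one above 1, and the medians were −0.43 and 0.42.

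**Figure D2:**
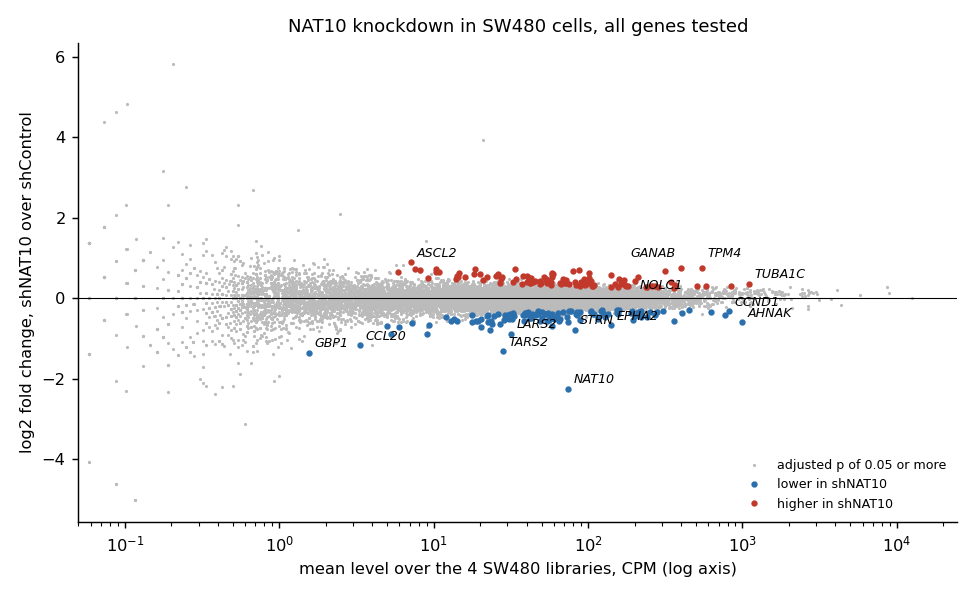
Mean level over the 4 SW480 libraries (CPM, log axis) against the log2 fold change of shNAT10 over shControl for the tested genes at 0.05 CPM or more. Blue points are the 123 genes lower and red points the 106 higher at an adjusted p under 0.05, and NAT10 at −2.25 lies farthest from 0 among them.

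The falls with the lowest adjusted p after NAT10 itself were those of a pair of mitochondrial aminoacyl-tRNA synthetases. TARS2, which charges the mitochondrial threonine tRNA, had 42.1 and 37.9 CPM in the shControl libraries and 14.6 and 17.6 CPM in the shNAT10 libraries, and 40.2% of the control mean was left (log2 fold change −1.31, −1.35 with the correction). LARS2, its counterpart for leucine, had 43.2 and 39.2 CPM in the shControl libraries and 23.1 and 21.7 CPM in the shNAT10 libraries, which left 54.3%. In both genes every shNAT10 library was far under every control. The log2 fold change of LARS2 was −0.88 (standard error 0.0962, adjusted p = 0.000603, edgeR) and −0.84 after the correction. The family did not fall as a whole: of 17 mitochondrial synthetases tested, 2 were lower and 0 higher, and the median log2 fold change was 0.032. Among the 20 cytosolic synthetases 0 were lower and 2 were higher, HARS1 for histidine and KARS1 for lysine. HARS1 went from 175 and 172 to 237 and 227 CPM (log2 fold change 0.42, adjusted p = 0.00396, edgeR) and KARS1 from 221 and 216 to 260 and 271 CPM (0.28, adjusted p = 0.0312, edgeR).

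CCL20, a chemokine of the intestinal epithelium, had 4.69 and 4.57 CPM in the shControl libraries and 1.94 and 2.16 CPM in the shNAT10 libraries. IL23A, the p19 subunit of interleukin 23, had 7.85 and 6.03 CPM in the shControl libraries and 3.23 and 4.21 CPM in the shNAT10 libraries, with more spread within each group than CCL20. BIRC3, an inhibitor of apoptosis induced by NF-κB, had 59.6 and 58.7 CPM in the shControl libraries and 39.5 and 44.1 CPM in the shNAT10 libraries. The log2 fold changes were −1.17, −0.90 and −0.50, with adjusted p of 0.00736, 0.0406 and 0.00721 (edgeR), and −1.21, −1.01 and −0.34 after the correction. TNFAIP2, another gene induced by tumour necrosis factor, went from 85.5 and 81.7 to 68.1 and 65.7 CPM (adjusted p = 0.0403, edgeR). Of 23 NF-κB driven cytokines and feedback genes tested, which do not include IL23A, 3 were lower and 0 higher, where 0.903% of all genes were lower. The list's median was −0.10. With the correction 5 were lower (median −0.11), where 1.73% of all genes were. This was the lowest corrected median of the 31 curated lists with 8 or more genes tested. Without shNAT10 replicate 1 it was −0.054.

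GBP1 and MX2, a pair of GTPases induced by interferon, fell as well. GBP1 had 2.4 and 2.11 CPM in the shControl libraries and 0.882 and 0.877 CPM in the shNAT10 libraries, and MX2 had 7.68 and 7.26 CPM in the shControl libraries and 5.06 and 3.98 CPM in the shNAT10 libraries. Neither gene was abundant, and in both the groups were well separated. Their log2 fold changes were −1.35 (adjusted p = 0.0305, edgeR) and −0.72 (adjusted p = 0.0187, edgeR). They were the 2 genes lower of 43 interferon response genes tested (4.65%, against 0.903% of all genes), and none was higher. The list's median was −0.11, against −0.0095 over all genes. With the correction 4 were lower, where 1.73% of all genes were, and the median was −0.056. NLRP1, a sensor of the inflammasome, had 24.7 and 25.3 CPM in the shControl libraries and 15 and 15.7 CPM in the shNAT10 libraries (log2 fold change −0.71, adjusted p = 0.00315, edgeR). IL6ST, the shared receptor chain of the interleukin 6 family, went from 273 and 285 to 182 and 221 CPM. Its log2 fold change of −0.47 (adjusted p = 0.0186, edgeR) ran from −0.61 to −0.33 with libraries left out, and it was the single call among 14 genes of JAK-STAT3 signalling.

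EPHA2, a receptor tyrosine kinase for ephrins, had 174 and 170 CPM in the shControl libraries and 108 and 109 CPM in the shNAT10 libraries, and the spread within groups was small. The change on the log2 scale was −0.66 (standard error 0.0739, adjusted p = 0.000645, edgeR), it ran from −0.68 to −0.65 with libraries left out, and with a GC content of 60.3% the correction moved it to −0.70. AHNAK, a giant scaffold protein under the plasma membrane, was the most abundant gene that fell, with 1106 and 1278 CPM in the shControl libraries and 697 and 886 CPM in the shNAT10 libraries. Its transcript measures 18787 bases, and the correction took its log2 fold change from −0.59 to −0.44 (adjusted p = 0.0184 and 0.000136, edgeR). ITGA2, an integrin chain that binds collagen, went from 25.8 and 28 to 15.1 and 20.5 CPM (adjusted p = 0.0247, edgeR), and it was the single call among 23 integrins, with 2 lower with the correction. LAMA5, a laminin chain, went from 121 and 128 to 90.8 and 98.2 CPM (adjusted p = 0.0246, edgeR). CLDN11, a tight junction claudin, went from 75.9 and 78.3 to 56.2 and 51.6 CPM (adjusted p = 0.00812, edgeR), and AXL, a receptor tyrosine kinase linked to motility, from 174 and 172 to 147 and 138 CPM (adjusted p = 0.0464, edgeR). ANKRD1, a target of YAP and TEAD, went from 247 and 215 to 158 and 161 CPM (adjusted p = 0.00318, edgeR).

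STRN, KLHL8, MBLAC2, EPG5, LCA5 and PLEKHG1 completed the 15 largest falls. STRN encodes striatin, a scaffold of a phosphatase complex, and it had 99.5 and 108 CPM in the shControl libraries and 55.5 and 65.2 CPM in the shNAT10 libraries. KLHL8, a kelch protein that serves a cullin ubiquitin ligase, had 29.2 and 29.1 CPM in the shControl libraries and 15.9 and 17.8 CPM in the shNAT10 libraries. EPG5, which tethers autophagosomes to lysosomes, had 67.5 and 76.2 CPM in the shControl libraries and 38.2 and 51.5 CPM in the shNAT10 libraries, and its shNAT10 libraries were farther apart than its controls. Their log2 fold changes of −0.78, −0.79 and −0.68 (adjusted p = 0.000765, 0.000727 and 0.0165, edgeR) became −0.60, −0.65 and −0.53 with the correction. MBLAC2, LCA5 and PLEKHG1 had log2 fold changes of −0.90, −0.68 and −0.66 (adjusted p = 0.00971, 0.0431 and 0.0306, edgeR). With the correction LCA5, which encodes the ciliary protein lebercilin, no longer passed (adjusted p = 0.07, edgeR).

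**Figure D3:**
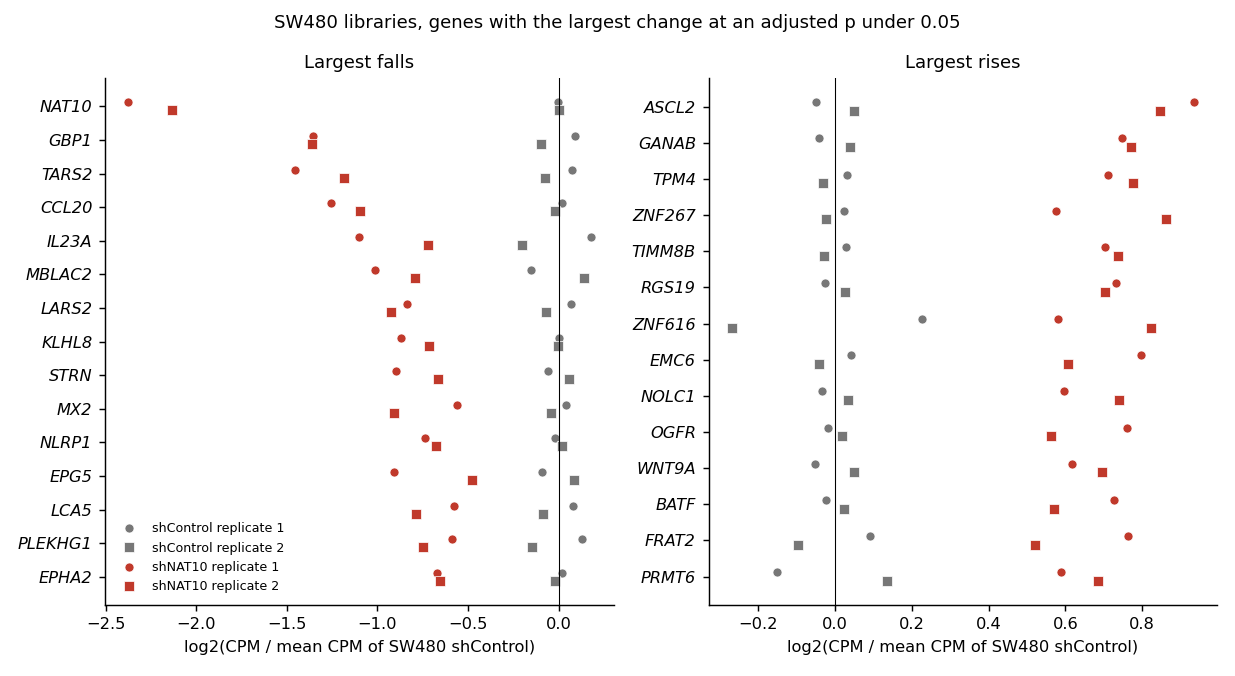
The largest falls (left) and rises (right) named in the text, at an adjusted p under 0.05. Each point is 1 SW480 library (grey for shControl, red for shNAT10, circle for replicate 1, square for replicate 2), placed by the log2 ratio of its CPM to the shControl mean. No shNAT10 library reaches a control library of the same gene, which was a condition for being named.

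Parts of the hairpin sites recur in other transcripts. Besides NAT10, 6 tested genes held 14 or more consecutive bases of the shNAT10-1 site in their longest coding transcript, and 0 held as many of the shNAT10-2 site. The shared bases are in capitals for TARS2 and STRN, which are among the largest falls.

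TARS2: ggCCAAAGCTGTCTTGAaa

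STRN: gGCCAAAGCTGTCTTgaaa

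In TARS2 they are 15 bases at 1450 to 1464 of ENST00000369064.7, upstream of the 3′UTR, and in STRN 14 bases at 4742 to 4755 of ENST00000263918.8, in the 3′UTR. TAF2, a subunit of the general transcription factor TFIID, holds 14 bases upstream of its 3′UTR, and was lower at a log2 fold change of −0.60 (adjusted p = 0.008, edgeR). The others, singled out by their sequence, were RNF114 (−0.23, adjusted p = 0.131), PLAC1 (−0.36, adjusted p = 0.583) and UTP25 (−0.11, adjusted p = 0.405, edgeR), so that 3 of the 6 passed the test, all of them lower, against the 0.903% of all genes that were lower. The shared bases hold the whole seed match in TAF2 alone of these 6 genes, and not in TARS2 or STRN.

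The 7 bases TCTTGAA that match the seed of the shNAT10-1 guide stood in the 3′UTR of 72 of 123 genes that fell (58.5%), of 5 of 106 that rose (4.72%) and of 20.1% of 13392 tested genes with a 3′UTR. The genes that fell also had long 3′UTRs, 2769 bases in the median against 1261 over all genes. When genes were put into 5 bins of 3′UTR length, the site was in 22 of 30 genes that fell in bin 4, against 26.4% of all genes there, and in 40 of 58 in the longest bin, against 51.2%. Over all genes of a bin, the corrected median log2 fold change was compared between genes with the site and without it. From the shortest bin to the longest the difference was −0.035, −0.045, −0.038, −0.019 and 0.0015. With the correction for GC content and length the site was in 43.9% of 230 genes that fell and 21.2% of 283 that rose. The bases TAGATGA, which match the seed of shNAT10-2, were in 19.5% of the genes that fell, 4.72% of those that rose and 10.2% of all, and with the correction in 11.7% and 11.3%. Of the 15 largest falls 6 held the shNAT10-1 seed match in the 3′UTR and 1 the other, and of the 15 largest rises 1 and 1. A match of letters is a description of these transcripts, and its part in the changes was not tested.

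The rises were led by ASCL2, the transcription factor that marks intestinal stem cells, with 4.81 and 5.15 CPM in the shControl libraries and 9.53 and 8.95 CPM in the shNAT10 libraries. Its log2 fold change was 0.89 (standard error 0.12, adjusted p = 0.00225, edgeR). With a GC content of 69.2% it moved to 0.70 under the correction (adjusted p = 0.00535, edgeR). It was the single call among 13 intestinal stem cell genes, whose median was 0.015, or 0.065 corrected, when 3 of them were higher. Among the 44 genes of the Wnt and β-catenin pathway tested, ASCL2 was the single call in the upward and CCND1, cyclin D1, the single call in the downward direction. WNT9A, a Wnt ligand, and FRAT2, a protein that binds GSK3, neither of them on that list, rose from 7.8 and 8.37 to 12.4 and 13.1 CPM and from 4.86 and 4.27 to 7.76 and 6.55 CPM (log2 fold change 0.66 and 0.65, adjusted p = 0.035 and 0.0476, edgeR).

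Both subunits of glucosidase II, which trims glucose from newly made glycoproteins in the endoplasmic reticulum, were higher. GANAB, the catalytic subunit, had 289 and 306 CPM in the shControl libraries and 499 and 507 CPM in the shNAT10 libraries, which is 169% of the control mean. PRKCSH, the regulatory subunit, had 147 and 140 CPM in the shControl libraries and 214 and 180 CPM in the shNAT10 libraries. As in all genes called, the groups did not overlap, and for GANAB the distance between them was many times the distance within them. Their log2 fold changes were 0.76 (standard error 0.0627, adjusted p = 3.41e-05, edgeR) and 0.46 (adjusted p = 0.0175, edgeR), and 0.77 and 0.34 with the correction. GANAB passed the test under all 24 alternatives. CRELD2, a chaperone induced by endoplasmic reticulum stress, went from 24.6 and 21.3 to 30.8 and 33.3 CPM (adjusted p = 0.0378, edgeR) and did not pass with the correction (adjusted p = 0.0603, edgeR). These were the 3 calls among 28 genes of the unfolded protein response (10.7%, against 0.778% of all genes higher), and the list's median was −0.042. With the correction 2 were higher and 1 lower, where 2.09% and 1.73% of all genes were. EMC6, a subunit of the complex that inserts proteins into the membrane of that organelle, rose from 68.2 and 64.4 to 115 and 101 CPM (log2 fold change 0.70, 0.48 corrected, adjusted p = 0.000702, edgeR).

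TPM4, a tropomyosin of the actin cytoskeleton, was among the most abundant genes that rose, with 416 and 398 CPM in the shControl libraries and 666 and 697 CPM in the shNAT10 libraries. Its log2 fold change of 0.74 (standard error 0.0673, adjusted p = 8.35e-05, edgeR) was 0.74 with the correction, and it was the single call among 32 actomyosin genes. ANXA6, a calcium-dependent membrane-binding annexin, had 172 and 170 CPM in the shControl libraries and 248 and 249 CPM in the shNAT10 libraries, so the replicates lay within 2 CPM of each other in both groups (adjusted p = 0.000702, edgeR). TUBA1C, an α-tubulin, went from 970 and 970 to 1335 and 1165 CPM (adjusted p = 0.0265, edgeR), and PTMA, prothymosin α, from 769 and 737 to 958 and 912 CPM (adjusted p = 0.0394, edgeR). Both of these share sequence with close copies elsewhere in the genome, so their counts depend on how the authors' counting divided shared reads. CCT5, a subunit of the cytosolic chaperonin, and TKT, transketolase of the pentose phosphate pathway, were 0.30 and 0.30 higher on the log2 scale (adjusted p = 0.0262 and 0.0322, edgeR).

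The ribosome biogenesis genes that passed the test were all higher. NOLC1, a nucleolar phosphoprotein that binds small nucleolar ribonucleoproteins, had 236 and 248 CPM in the shControl libraries and 366 and 404 CPM in the shNAT10 libraries. Its log2 fold change was 0.67 (standard error 0.0723, adjusted p = 0.000603, edgeR) and 0.71 with the correction. PES1, a factor of large subunit assembly, went from 157 and 156 to 202 and 186 CPM (adjusted p = 0.0331, edgeR), and NOP16 from 49.9 and 44.8 to 64.5 and 58 CPM (adjusted p = 0.0421, and 0.0525 corrected, edgeR). They were the 3 calls among 47 ribosome biogenesis genes (6.38%, against 0.778% of all genes higher), and 0 were lower. The list's median was 0.064, 0.069 with the correction and 0.081 without shNAT10 replicate 1. Of the 47 genes 30 had a value above 0, against 6507 of all 13619 tested genes. A pair of RNA helicases, DDX54 and DHX37, rose from 87.6 and 92.4 to 127 and 114 CPM and from 35.6 and 38.3 to 48.5 and 48 CPM (adjusted p = 0.0194 and 0.0372, edgeR). The 81 cytosolic ribosomal protein genes had a median of 0.15 without any call, and 0.057 with the correction, when 4 were higher. Without shNAT10 replicate 1 the median was 0.081, and in DLD-1 cells it was −0.12. Their transcripts are short, 1171 bases in the median.

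Other mitochondrial lists had medians above 0. Of 71 nuclear genes of oxidative phosphorylation, 68 had a value above 0, against 6507 of all 13619 tested genes. Their transcripts are short, 1256 bases in the median, as are those of the mitochondrial ribosomal proteins below, 1516 bases. The bin of the shortest transcripts had a median of 0.11 over all its genes. Of the 71, 4 were higher (5.63%, against 0.778% of all genes) and 0 lower. With the correction 5 were higher, where 2.09% of all genes were. NDUFB10, an accessory subunit of complex I, had 60.3 and 54.8 CPM in the shControl libraries and 83.7 and 75.6 CPM in the shNAT10 libraries. ATP5ME of the ATP synthase went from 37.6 and 32.6 to 50.5 and 49.8 CPM, and SDHB, the iron-sulphur subunit of complex II, from 130 and 125 to 159 and 151 CPM. As in all genes called, the groups did not overlap in these 3 genes. Their log2 fold changes were 0.47, 0.51 and 0.28 (adjusted p = 0.0167, 0.0199 and 0.0435, edgeR). With the correction SDHB (0.19, adjusted p = 0.028, edgeR) passed, and NDUFB10 (0.25, adjusted p = 0.0707, edgeR) and ATP5ME (0.21, adjusted p = 0.213, edgeR) did not. The median of the list went from 0.15 to 0.095, and it was 0.081 without shNAT10 replicate 1. In DLD-1 cells the list's median was −0.068. The 76 mitochondrial ribosomal proteins had a median of 0.16, 0.06 corrected and 0.09 without shNAT10 replicate 1, and of −0.033 in DLD-1 cells. MRPS34 was their single call in SW480 (73 and 69.3 to 102 and 85.6 CPM, adjusted p = 0.0334, and 0.0759 corrected, edgeR). TIMM8B, a chaperone for import into the organelle, rose from 25.7 and 24.8 to 41.1 and 42.1 CPM (log2 fold change 0.72, adjusted p = 0.000702, edgeR).

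The remaining large rises had no common list. OGFR, the opioid growth factor receptor, had 61 and 62.6 CPM in the shControl libraries and 105 and 91.3 CPM in the shNAT10 libraries (log2 fold change 0.67, adjusted p = 0.000702, edgeR). RGS19, BATF and PRMT6, which encode a regulator of G protein signalling, a transcription factor of the AP-1 family and an arginine methyltransferase, had log2 fold changes of 0.72, 0.65 and 0.64 (adjusted p = 0.0128, 0.0306 and 0.0175, edgeR). ZNF267 and ZNF616 were the higher and ZNF791 the lower call among 423 zinc finger genes of the ZNF series. These are 0.473% and 0.236%, against 0.778% and 0.903% of all genes. With the correction 10 of the 423 were higher and 0 lower, where 2.09% and 1.73% of all genes were. ZNF267 went from 7.97 and 7.73 to 11.7 and 14.3 CPM and ZNF616 from 7.27 and 5.15 to 9.29 and 11 CPM, and their log2 fold changes of 0.73 and 0.71 (adjusted p = 0.0199 and 0.0442, edgeR) were larger with the correction, 0.82 and 0.81.

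Metabolic lists held few calls. MSMO1, an enzyme of cholesterol synthesis, went from 45.1 and 46 to 29.8 and 31.9 CPM (log2 fold change −0.56, adjusted p = 0.00396, edgeR), the single call among 35 genes of cholesterol and fatty acid synthesis. PFKL, liver type phosphofructokinase of glycolysis, was higher, from 79.8 and 77.3 to 118 and 99.6 CPM, and SLC2A3, a glucose transporter, was lower, from 490 and 500 to 402 and 411 CPM (adjusted p = 0.0184 and 0.0306, edgeR). Of 252 solute carriers 5 were lower and 1 higher (1.98% and 0.397%, against 0.903% and 0.778% of all genes). With the correction 9 were lower and 3 higher, where 1.73% and 2.09% of all genes were. Among the uncorrected calls were SLC19A2 for thiamine (−0.60, adjusted p = 0.018, edgeR), SLC36A1 and SLC38A1 for amino acids (−0.43 and −0.41, adjusted p = 0.0209 and 0.0305, edgeR) and SLC6A8 for creatine (0.39, adjusted p = 0.0429, edgeR). TFRC, the transferrin receptor, went from 312 and 317 to 231 and 264 CPM (adjusted p = 0.0414, edgeR). CHAC1, which degrades glutathione and is induced by the integrated stress response, went from 60.5 and 59.8 to 49.3 and 42.6 CPM. The log2 fold change was −0.39 (adjusted p = 0.0466, edgeR) and −0.53 with the correction (adjusted p = 5.46e-05, edgeR). It was the single call among 30 genes of that response, and with the correction 4 were lower.

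DICER1, which cuts microRNA precursors, went from 132 and 139 to 86.9 and 108 CPM (log2 fold change −0.47, adjusted p = 0.0331, edgeR), and it ran from −0.64 to −0.31 with libraries left out. It was the single call among 21 genes of RNA interference and sensing of double-stranded RNA. Of these, 19 had a value below 0, against 7071 of all 13619 tested genes, and the median was −0.13, −0.07 with the correction. Their transcripts are long, 6700 bases in the median, and the bin of the longest transcripts had a median of −0.12 over all its genes. METTL16, an m6A methyltransferase, went from 53.2 and 53.6 to 39.9 and 44.5 CPM (adjusted p = 0.0431, edgeR). PTBP3, a splicing regulator, went from 137 and 135 to 111 and 112 CPM (adjusted p = 0.0349, edgeR). It did not pass with the correction (adjusted p = 0.361, edgeR), when 7 of 37 splicing factors were higher, against 2.09% of all genes. The median of the splicing factors went from 0.019 to 0.10. EIF4G1, the scaffold of cap-dependent translation initiation, went from 676 and 710 to 521 and 578 CPM (adjusted p = 0.0409, edgeR). THOC7 of the complex for mRNA export rose from 48.3 and 45.8 to 63.3 and 60.5 CPM (adjusted p = 0.0184, edgeR).

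**Figure D4:**
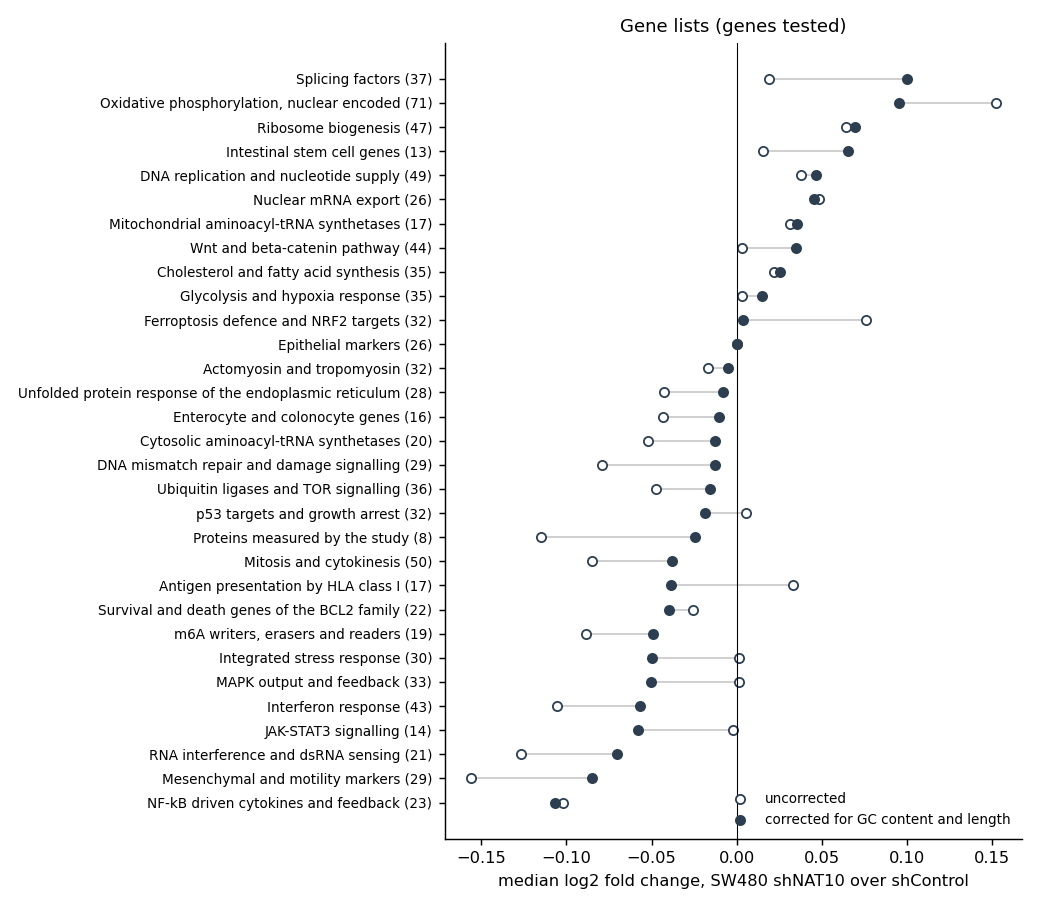
Median log2 fold change of SW480 shNAT10 over shControl for the 31 curated gene lists with 8 or more genes tested, before (open) and after (filled) the correction for GC content and transcript length. Nuclear genes of oxidative phosphorylation move from 0.15 to 0.095 and mesenchymal and motility markers from −0.16 to −0.085, and no corrected median is farther from 0 than −0.11.

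Mesenchymal and motility markers had a median of −0.16 over 29 genes with AXL as their single call. With the correction it was −0.085 and 3 were lower, and without shNAT10 replicate 1 it was −0.066. Epithelial markers had a median of 0 over 26 genes, without a call, and 2 of them were lower with the correction. CDH1, E-cadherin, had 94.1 and 101 CPM in the shControl libraries and 75.9 and 84.5 CPM in the shNAT10 libraries (log2 fold change −0.28, adjusted p = 0.0672, edgeR), and it passed with the correction (−0.23, adjusted p = 0.0181, edgeR). The other was TJP1, a scaffold of tight junctions, at −0.31 (adjusted p = 0.0775, edgeR) and −0.18 with the correction (adjusted p = 0.0413, edgeR). Genes of mitosis and cytokinesis had a median of −0.085 over 50 genes with 0 calls, and of −0.038 with the correction, when 2 were lower. AURKA, the mitotic kinase, had 182 and 178 CPM in the shControl libraries and 154 and 161 CPM in the shNAT10 libraries (log2 fold change −0.20, adjusted p = 0.125, edgeR), and it passed with the correction (−0.21, adjusted p = 0.0172, edgeR). Genes of DNA replication had a median of 0.038 over 49 genes with 0 calls, and of 0.047 with the correction, when 3 were higher. MCM7, a subunit of the replicative helicase, was one of these, at 0.23 (adjusted p = 0.0911, edgeR) and 0.19 with the correction (adjusted p = 0.0217, edgeR). Among 32 p53 targets BAX, which promotes apoptosis, was the single call (65.2 and 67.9 CPM in the shControl libraries and 91 and 78.3 CPM in the shNAT10 libraries, adjusted p = 0.0435, edgeR). It did not pass with the correction (adjusted p = 0.0979, edgeR). Then 3 p53 targets were lower and 0 higher, where 1.73% and 2.09% of all genes were. HLA class I genes had a median of 0.033 over 17 genes with 0 calls. It changed sign with the correction, to −0.038, and without shNAT10 replicate 1, to −0.037. With the correction 0 were called as well.

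Among 8 genes whose proteins were also examined by Western blot or staining, CCND1 was the single call. CCND1 had 888 and 924 CPM in the shControl libraries and 718 and 729 CPM in the shNAT10 libraries, with a log2 fold change of −0.32 (adjusted p = 0.0305, edgeR), −0.29 corrected, and a range from −0.35 to −0.29 with libraries left out. MYC went from 307 and 302 to 355 and 335 CPM (log2 fold change 0.18, adjusted p = 0.14, edgeR), CTNNB1, which encodes β-catenin, from 505 and 494 to 464 and 489 CPM (−0.067, adjusted p = 0.584, edgeR) and GSK3B from 83.5 and 81.6 to 74.4 and 73.9 CPM (−0.15, adjusted p = 0.263, edgeR). MKI67, the proliferation marker, had 580 and 619 CPM in the shControl libraries and 463 and 594 CPM in the shNAT10 libraries, so 1 shNAT10 library lay below both controls and the other between them. KIF23, a mitotic kinesin, BIRC5, survivin, and BCL2L1 had log2 fold changes of −0.13, −0.10 and 0.073 (adjusted p = 0.286, 0.502 and 0.611, edgeR). With the correction they were −0.052, −0.13 and 0.0085. For KIF23 91.4% of the control mean was left and the unadjusted p was 0.0635 (edgeR), outside the limits the study set. The study itself counted KIF23 among the genes lower after NAT10 knockdown in its RNA-seq. It also reported by qRT-PCR that KIF23 expression changed in the same direction as NAT10.

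For the 229 genes called in SW480, most changes in DLD-1 cells had the same sign as in SW480 and a smaller size. The DLD-1 libraries bear on which 229 genes passed, since the estimate of spread is shared. Of the 123 genes lower in SW480, 107 were below 0 in DLD-1, where 49.0% of all tested genes were, and of the 106 higher in SW480, 88 were above 0 in DLD-1, against 49.5%. Of the 13 lower and 16 higher genes called from the SW480 libraries alone, 13 and 15 had the same sign in DLD-1, and of the 173 and 190 so called with the correction, 137 and 148 did. The median DLD-1 log2 fold changes of the 123 lower and 106 higher genes were −0.13 and 0.089, and −0.12 and 0.097 with the correction. Values were nearer to 0 or of the other sign in DLD-1 for 120 of 123 and 105 of 106, but the genes were chosen for their size in SW480. The difference between the lines passed the test for 1 gene of 13619 (0.00734%), NAT10 itself, at −1.16 on the log2 scale (adjusted p = 0.0015, edgeR), with 1278 genes at an unadjusted p under 0.05 and 20 genes by DESeq2. With the correction it passed for 21 genes (0.154%). NAT10 had a log2 fold change of −1.09 in DLD-1. GANAB and TPM4 were 0.32 and 0.27 in DLD-1 (adjusted p of the difference 0.175 and 0.175, edgeR), and with the correction the difference passed for both (adjusted p = 0.00401 and 0.006, edgeR). LARS2 was −0.44 (adjusted p of the difference 0.472, and 0.216 with the correction, edgeR). TARS2 was −0.81 in DLD-1 and passed the test there (adjusted p = 0.00393, edgeR). Its difference between the lines did not pass (adjusted p = 0.436, and 0.0896 with the correction, edgeR).

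**Figure D5:**
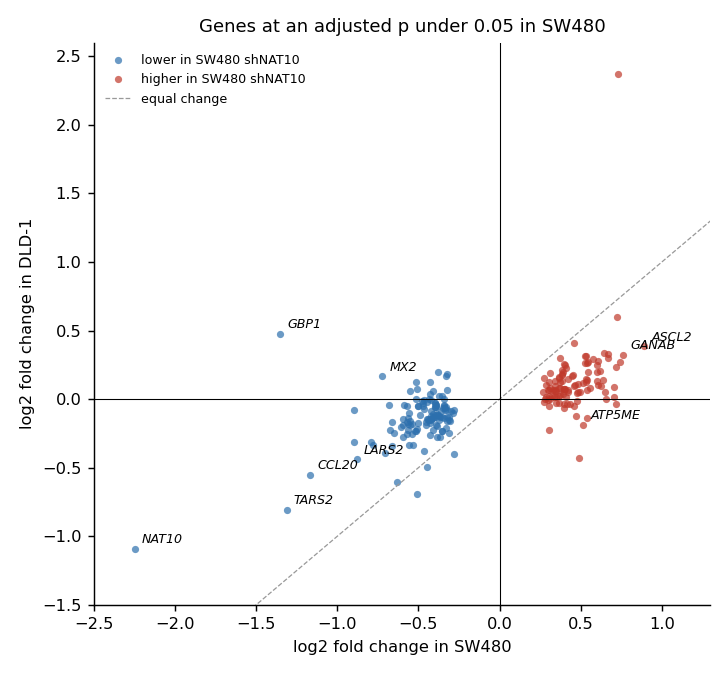
Log2 fold change of shNAT10 over shControl in SW480 (horizontal) and DLD-1 (vertical) for the 229 genes at an adjusted p under 0.05 in SW480, blue where lower and red where higher in SW480, with a dashed line of equal change. Most points lie on the same side of 0 in both lines and nearer to 0 in DLD-1, and GBP1 and MX2 lie below 0 in SW480 and above 0 in DLD-1.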

How the data were processed

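The series holds RNA-seq libraries of both cell lines with shControl or shNAT10, 2 in each group as given by the labels. The authors deposited estimated counts per RefSeq transcript, which were not normalized, and FPKM values per library. The submitters' processing notes name HISAT2 2.0.4, Bowtie2 2.2.5, RSEM 1.2.12 and hg38. FPKM served for alternatives only, over the 64298 transcripts present in every library, since the values of SW480 shNAT10 replicate 2 lack 14655.

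Counts were summed per Entrez gene, rounded, filtered (filterByExpr, minimum count 10), scaled by TMM and modelled as 4 groups in edgeR 4.0.16, with Benjamini-Hochberg adjustment over 13619 genes. The standard error of a gene is its log2 fold change, without sign, over the root of the F statistic. Symbols matched 99.3% of genes. GC content and length are those of the longest coding GENCODE transcript (98.8% of tested genes), and the correction is a loess of each library's deviation on both (span 0.5, degree 2), used as an offset. This correction was added after the data were seen. The members and gene lists were chosen with earlier results of these data known.

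The genes named are NAT10 and, among genes at an adjusted p under 0.05 with groups that do not overlap and a mean of at least 1 CPM, the 15 largest falls and rises, the 5 with the lowest adjusted p and the 5 with the highest level each way. To these come up to 4 calls of each list, or else the 2 members with the lowest p, and the genes of proteins that the study measured. Of 32 curated lists and 31 gene families with 10 or more genes tested, those with calls or of direct interest are described. A pair of the genes so chosen are not reported here. Alternatives were DESeq2 1.42.0, upper-quartile normalization, other filters, SW480 alone, a replicate block, corrections, leaving out each library, and limma 3.58.1 on log2 FPKM. Python 3.11.15 was used for the tables and drawings.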

Additional observations from a re-analysis of the deposited data

Results flagged for a closer look

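The difference between the SW480 and DLD-1 changes, SW480 minus DLD-1 on the log2 scale, is given for NAT10 and for named genes whose shNAT10 libraries lay entirely on 1 side of the controls in SW480 and entirely on the other in DLD-1. NAT10 was the one whose difference passed the test, at −1.16 (adjusted p = 0.0015, edgeR), the knockdown being deeper in SW480. For the other 8 genes the difference was tested and did not pass after adjustment. GBP1 differed by −1.83 (adjusted p = 0.175, edgeR), MX2 by −0.89 (adjusted p = 0.163, edgeR), TNFAIP2 by −0.50 (adjusted p = 0.489, edgeR) and RAB3B, a GTPase of vesicle traffic, by −0.58 (adjusted p = 0.175, edgeR), all lower in SW480 and higher in DLD-1. BAX differed by 0.38 (adjusted p = 0.472, edgeR), ATP5ME by 0.70 (adjusted p = 0.175, edgeR), NDUFB10 by 0.59 (adjusted p = 0.175, edgeR) and THOC7 by 0.46 (adjusted p = 0.306, edgeR), all higher in SW480 and lower in DLD-1. With the correction for GC content and length the difference passed for NAT10, GBP1 and MX2 among these 9 (adjusted p = 8.15e-06, 0.0475 and 0.00998, edgeR).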

How the results depend on the processing

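With 2 libraries a group, the number of genes called was less stable than their direction. NAT10 passed under all 24 alternatives. The lower and the higher genes at an adjusted p below 0.05 numbered 22 and 33 with a filter of 1 count, 13 and 16 with the SW480 libraries alone, 3 and 6 on log2(FPKM + 1), 3 and 7 on log2(FPKM + 0.1) and 6 and 7 on log2(FPKM + 1) without a filter. They numbered 235 and 284 with the GC and length correction, and the higher genes 167 by DESeq2, 178 with the GC correction, 199 with the length correction and 190 with the SW480 libraries alone and both corrections. Leaving out 1 library at a time, with and without the correction, gave 8 to 1131 lower and 9 to 1031 higher, with the extremes in the uncorrected fits that lacked SW480 shControl replicate 2 (8 and 9) and SW480 shNAT10 replicate 2 (1131 and 1031). Without SW480 shControl replicate 1 there were 16 and 17, and without SW480 shNAT10 replicate 1 there were 29 and 39. With the correction the same fits gave 65 to 367 lower and 68 to 512 higher. The cause of the other differences was not tested.

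A replicate block gave 822 lower and 650 higher, 779 and 882 with the GC correction, 387 and 446 with the length correction and 574 and 752 with both. The deviations of libraries with the same number correlated at 0.42 over 9934 genes, but 2 pairs do not establish that the numbers pair the samples, so the block was not used elsewhere. All 229 genes were among the calls of the uncorrected block.

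At the limits of the study, genes lower numbered 448 by DESeq2, 433 with the length correction, 388 with both corrections, 404 with the block and both corrections, 378 with SW480 alone and both corrections, and 328 to 1482 with a library left out (436, 328 and 364 with the correction and without shControl replicate 1, shControl replicate 2 or shNAT10 replicate 1). Genes higher numbered 350 on log2(FPKM + 1), 344 on log2(FPKM + 0.1), 341 with both corrections, 362 with the block and both corrections, 334 with SW480 alone and both corrections, and 316 to 1332 with a library left out (323 without shNAT10 replicate 1, and with the correction 345 without shControl replicate 2). Genes whose SW480 and DLD-1 changes differed numbered 20 by DESeq2, 4 with the GC correction, 21 with both corrections, 112 with the replicate block and 1 to 346 with a library left out. The GC trend was 0.0017 after the GC correction, 0.0063 after both and 0.065 to 0.37 with a library left out, and the length trend was −0.0044 after the length correction and −0.0031 after both.

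Over 81 named genes with an adjusted p under 0.05, 1909 of 1912 recomputed values kept their direction and 1214 also passed the test. The 3 that reversed were those of CRELD2 on FPKM, at −0.22 (log2(FPKM + 1), with or without the filter) and −0.17 (log2(FPKM + 0.1)), and the cause was not tested. List medians moved by less than the spread between replicates in 963 of 1512 recomputed values.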
